A study of Homo sapiens with 16 samples.

Results

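The 40 genes described here are ATF4, genes that ATF4 is known to activate, and further genes of the integrated stress response in HMC3 cells, an established human cell line sold as microglia. They were taken by gene symbol from a table of raw RNA-seq counts with 25370 genes, by a list that sets no limit on any measured value but was drawn up with earlier results of these data known, and all 40 were among the 16004 genes with enough counts to be tested. Cells were held in serum-free medium and exposed for 24 h to vehicle, estradiol (E2), ketamine, (2R,6R)-hydroxynorketamine ((2R,6R)-HNK) or (2S,6S)-hydroxynorketamine ((2S,6S)-HNK), or to E2 together with 1 of the 3 compounds. Ketamine and the HNKs were used at 400 nM and E2 at 0.1 nM. Both HNKs are metabolites of ketamine and are mirror images of each other. Each of the 8 conditions had 2 libraries, with 55300614 to 81646165 counts per library. Whether the 2 libraries of each condition are separate cultures is not given in the sources used here, and p-values then measure only the spread between libraries, which may be technical. Of 10 microglia markers, 8 were under 1 CPM (counts scaled to a common library size) in all 16 libraries, and C1QA had no count. Summed CPM of the microglia list was 1.11 to 2.17 per library, whereas that of 4 mesenchymal genes (COL1A1, COL1A2, VIM and PDGFRB) was 5764 to 7069, so the cells are called HMC3 cells below rather than microglia.

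The integrated stress response begins when a kinase that senses stress phosphorylates the translation initiation factor eIF2. PERK (EIF2AK3) senses unfolded protein in the endoplasmic reticulum (ER), and GCN2 (EIF2AK4) senses a shortage of amino acids. Phosphorylated eIF2 slows most protein synthesis but lets ribosomes reach the coding sequence of ATF4, a transcription factor whose protein level is therefore set largely by translation rather than by its RNA. ATF4 turns on genes that make, import and charge amino acids onto tRNA, and genes such as DDIT3 (CHOP), TRIB3 and CHAC1 that decide how long a stressed cell survives. RNA levels alone, as measured here, do not report eIF2 phosphorylation or ATF4 protein.

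ATF4 often acts at a DNA element that joins part of a C/EBP site to part of an ATF site, here searched as TGATGNAA on both strands. The 300 bases around annotated start sites (250 before and 50 after, RefSeq on GRCh38.p14) were available for 35 of the 40 genes. At least 1 match was present for 12 of the 35 (34.3%), and for 1217 of all 27305 genes with such a stretch (4.46%). The genes with a match were ATF3, CHAC1, ASNS, SLC3A2, SLC7A1, SLC1A5, AARS, GARS, MARS, NARS, CARS and HERPUD1, which include 5 of the 8 tRNA synthetases and 3 of the 5 amino acid transporters. Since the genes were chosen as known ATF4 targets, this share was not tested. The 5 stretches below lie before the start site and show the match, in capitals, in genes whose values are described further on. Each reads 5′ to 3′ along the strand of its gene, and where the match lies on the other strand its reverse complement TTNCATCA is in capitals.
ASNS, chr7:97872443-97872502, minus strand: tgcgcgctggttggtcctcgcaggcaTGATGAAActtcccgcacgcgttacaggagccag
CHAC1, chr15:40953236-40953295, plus strand: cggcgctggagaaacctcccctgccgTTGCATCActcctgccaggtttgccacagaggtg
ATF3, chr1:212565190-212565249, plus strand: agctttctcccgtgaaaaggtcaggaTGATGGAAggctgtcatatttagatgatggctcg
AARS, chr16:70289660-70289719, minus strand: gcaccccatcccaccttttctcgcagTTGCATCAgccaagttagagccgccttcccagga
HERPUD1, chr16:56931940-56931999, plus strand: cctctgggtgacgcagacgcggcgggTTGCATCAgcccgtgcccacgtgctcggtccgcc

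Other elements of stress signalling were rarer among these genes. The cAMP response element TGACGTCA was found in 1 of the 35, PPP1R15A (2.86%, against 2.25% of all genes). The ER stress element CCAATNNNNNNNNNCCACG, a site of the ER stress sensor ATF6, was found in XBP1 (2.86%, against 0.0916%). The sequence TGACGTGG, known as a site of XBP1 and ATF6, was found for ALDH18A1 and CARS (5.71%, against 0.927%). The first pair is printed for comparison with the element above, again with the match in capitals.
PPP1R15A, chr19:48872337-48872396, plus strand: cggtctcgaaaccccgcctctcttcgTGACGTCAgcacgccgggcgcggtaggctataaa
XBP1, chr22:28800577-28800647, minus strand: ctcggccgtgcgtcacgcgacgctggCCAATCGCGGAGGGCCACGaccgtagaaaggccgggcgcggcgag

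A property of these libraries bears on most of the values. Fold changes against vehicle followed the GC content of the exons across all genes. Over the 15363 tested genes with a GC value, Spearman's correlation of log2 fold change with GC content was between 0.444 in E2+(2S,6S)-HNK and 0.771 in E2+ketamine. Over the 40 genes it was 0.788 in E2, 0.762 in (2R,6R)-HNK, 0.691 in E2+ketamine and 0.556 in ketamine, and 0.329 in (2S,6S)-HNK, 0.369 in E2+(2R,6R)-HNK and 0.0906 in E2+(2S,6S)-HNK. These are correlations across genes measured in the same libraries and no p is given. Results are therefore given as fitted to the deposited counts and, for most, again after each library was corrected for a smooth trend with GC content and exon length, called the GC-corrected value. The median GC content was 50.2% for the 40 genes and 48.7% for all genes tested. The correction removes changes of the cells that follow GC content along with any made in the library preparation, and which of the pair is nearer to the RNA in the cells was not tested. Of the 239 changes against vehicle that passed the test (adjusted p under 0.05) among the 40 genes, 40 passed with the opposite sign after correction.

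**Figure D1:**
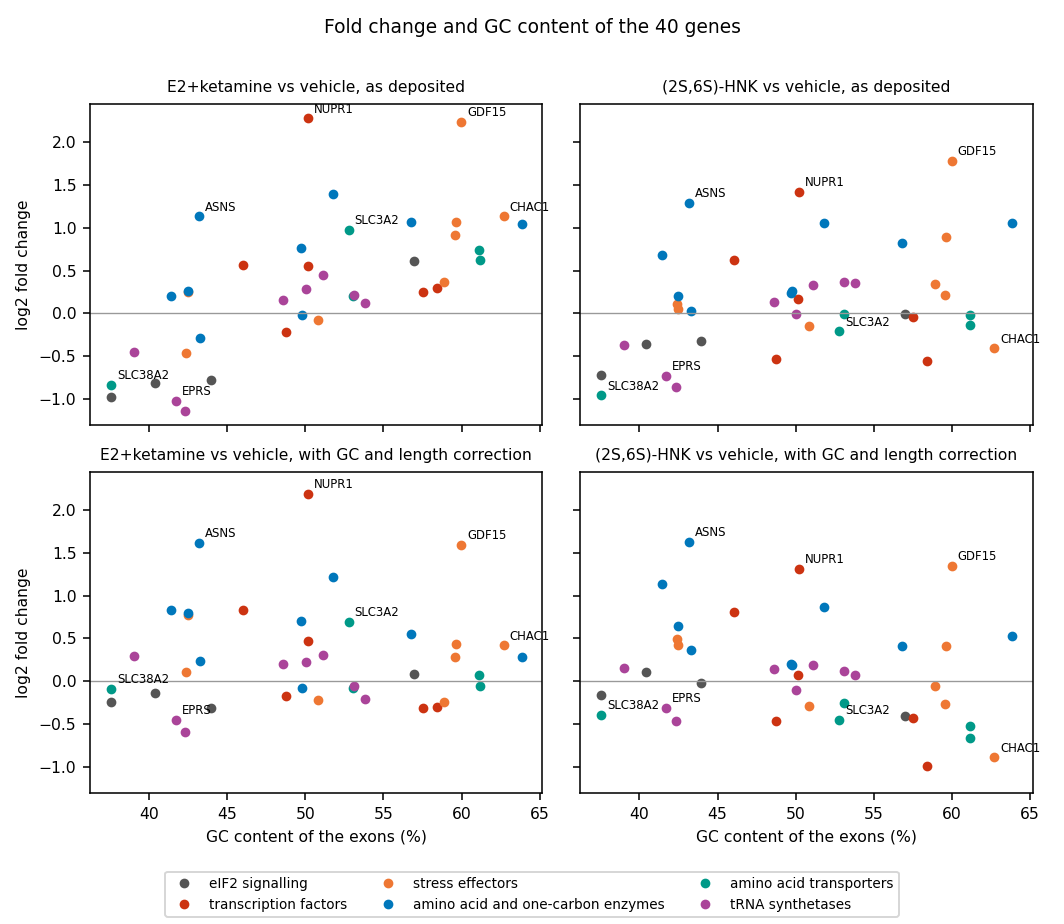
Log2 fold change against vehicle (vertical axis) and GC content of the exons in percent (horizontal axis) for the 40 genes, in E2+ketamine (left) and (2S,6S)-HNK (right), as deposited (top) and with GC and length correction (bottom). Each point is 1 gene, coloured by role. In E2+ketamine the uncorrected values rise from left to right, whereas NUPR1 and GDF15 are among the 3 highest points in all 4 panels.

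All 7 treatments were compared with vehicle to ask which genes of the response changed. In bulk RNA a change in the RNA of each cell cannot be told apart from a change in the mix of cells. E2 raised 17 of 40 and lowered 14, where 29.9% of all genes tested were higher and 32.7% lower. Ketamine raised 17 and lowered 16 (all genes 26.8% and 32.5%). (2R,6R)-HNK raised 24 and lowered 13 (all genes 31.7% and 34.9%), and (2S,6S)-HNK raised 18 and lowered 13 (all genes 32.1% and 35.8%). E2+ketamine raised 28 and lowered 11 (all genes 34.3% and 37.4%). With E2, (2R,6R)-HNK raised 19 and lowered 14 (all genes 33.4% and 36.3%), and (2S,6S)-HNK raised 18 and lowered 17 (all genes 24% and 35.7%). The median log2 fold change of the 40 was 0.28 in E2+ketamine and 0.19 in (2R,6R)-HNK, and between 0.014 and 0.076 in the other 5, beside medians between -0.064 and -0.0027 over all genes. Corrected medians were 0.21 in E2+ketamine, 0.093 in (2S,6S)-HNK, 0.064 in E2+(2R,6R)-HNK, 0.053 in (2R,6R)-HNK and 0.048 in E2+(2S,6S)-HNK. They were -0.045 in ketamine and -0.059 in E2, beside -0.052 to -0.016 over all genes. With GC correction 23 rose and 15 fell in E2+ketamine (all genes 23.9% and 28.3%), 10 rose and 19 fell in E2 (all genes 15.4% and 22.7%), and 14 rose and 20 fell in ketamine (all genes 17.7% and 31%). The corrected counts were 19 higher and 13 lower in (2R,6R)-HNK (all genes 20.2% and 25.3%) and 20 and 16 in (2S,6S)-HNK (all genes 25.3% and 31.5%). For the combinations of the HNKs with E2 they were 19 and 17 with the (2R,6R) form (all genes 25.7% and 33.6%) and 19 and 16 with the (2S,6S) form (all genes 22.4% and 34.1%). With upper-quartile in place of TMM scaling, rises made up a share of the called members that was over 10 percentage points larger in 3 treatments. There 23 rose and 12 fell in E2 (all genes 33.6% and 29.3% with the same scaling), 22 and 9 in ketamine (33.7% and 26.9%) and 21 and 10 in E2+(2R,6R)-HNK (37.6% and 32.5%), so the calls over all genes moved the same way.

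Changes of at least 2-fold were found in 11 of the 40 in 1 or more treatments, where 21.2% of all genes tested had one. They were the stress effectors GDF15, TRIB3 and CHAC1, the transcriptional regulator NUPR1, the enzymes ASNS, PHGDH, SHMT2 and PYCR1, the transporter SLC38A2 and the tRNA synthetases NARS and EPRS. By treatment, 10 of the 40 passed 2-fold in E2+ketamine (11% of all genes), 7 in E2+(2R,6R)-HNK (11.5%), 5 in (2S,6S)-HNK (9.08%), 2 each in ketamine (3.56%) and E2+(2S,6S)-HNK (5.85%), 1 in (2R,6R)-HNK (3.75%) and 0 in E2 (1.81%). With GC correction 5 genes passed 2-fold (10.5% of all genes), namely GDF15, NUPR1, ASNS, PHGDH and ALDH1L2. Across all 7 treatments, 6 genes were higher in every one (GDF15, TRIB3, PHGDH, SHMT2, PYCR1 and XBP1) and 8 were lower in every one (DDIT3, SLC38A2, STC2, EIF2AK4, EIF2S1, GARS, NARS and EPRS). Over all genes tested 13.4% were higher and 21.4% lower in all 7. After correction 7 members were higher in all 7 treatments and 7 lower (all genes 4.82% and 11.8%). In both fits, GDF15, PHGDH and XBP1 rose in all 7 treatments, and DDIT3, STC2, NARS and EPRS fell in all 7 (all genes 2.68% and 8.01%), although upper-quartile scaling put STC2 in E2+(2R,6R)-HNK just above vehicle. All 7 comparisons share the same 2 vehicle libraries.

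**Figure D2:**
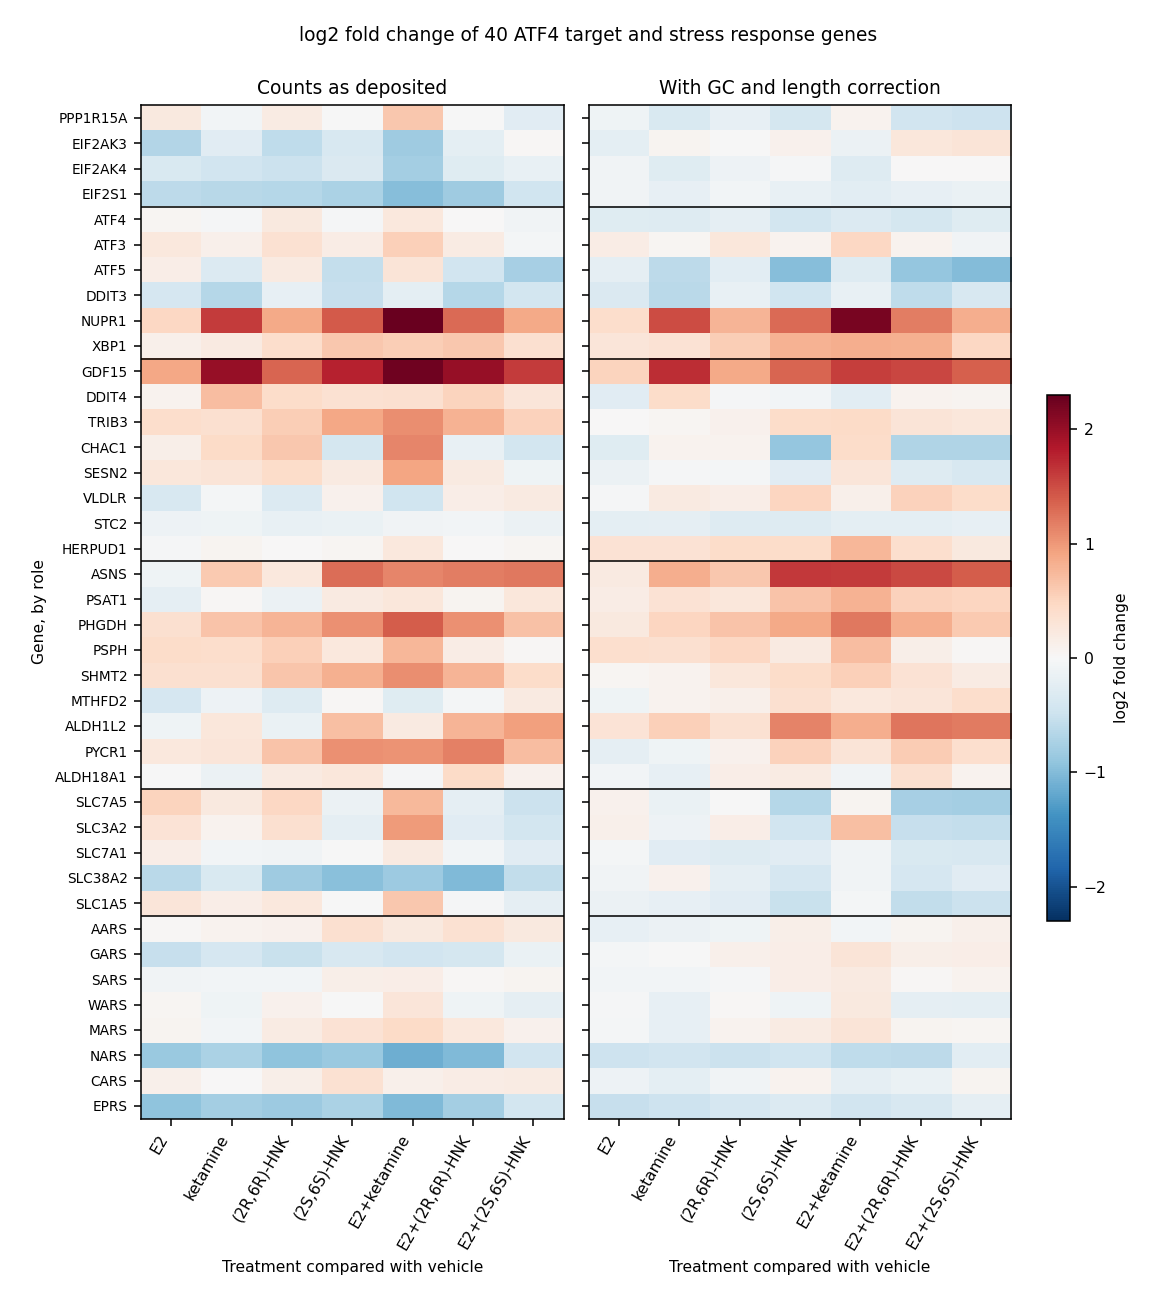
Log2 fold change against vehicle of the 40 genes (rows, by role) in the 7 treatments (columns), from the counts as deposited (left) and with GC and length correction (right); red is higher and blue lower than vehicle. GDF15 and NUPR1 are the darkest red rows in the left panel, joined by ASNS in the right panel, and many of the other rows change colour between the panels.

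Of the 4 genes of eIF2 signalling, EIF2S1 and EIF2AK4 fell in all 7 treatments and EIF2AK3 in 6, and PPP1R15A rose in 3 and fell in 1. After correction PPP1R15A rose in E2+ketamine and fell in the other 6. PPP1R15A (GADD34) brings a phosphatase to eIF2 and so ends the response. Its level was 61.4 and 62.8 CPM in the vehicle libraries, 69.8 and 75.0 in E2, 59.4 and 59.2 in ketamine, 71.4 and 70.9 in (2R,6R)-HNK and 60.8 and 62.8 in (2S,6S)-HNK. Together with E2 it was 95.4 and 94.9 CPM with ketamine, 61.4 and 61.9 with (2R,6R)-HNK and 53.3 and 50.6 with (2S,6S)-HNK. Only the E2+ketamine libraries stood well above the others, with a log2 fold change of 0.62 ± 0.039 (SE), which became 0.083 with GC correction. In E2 and (2R,6R)-HNK its rises of 0.22 and 0.20 turned into falls of 0.099 and 0.20 after correction. EIF2S1, the subunit of eIF2 that is phosphorylated, was 209 and 208 CPM in vehicle, 136 and 138 in E2, 135 and 135 in ketamine, 133 and 132 in (2R,6R)-HNK and 130.4 and 122 in (2S,6S)-HNK. In the combinations it was 105 and 107 CPM with ketamine, 118 and 119 with (2R,6R)-HNK and 152 and 154 with (2S,6S)-HNK. Every treated library was below both vehicle libraries, and its log2 fold changes of -0.97 to -0.45 shrank to between -0.24 and -0.055. The GC content of EIF2S1 is 37.5%. The kinase genes EIF2AK3 and EIF2AK4 fell in 6 and 7 of the treatments. After correction EIF2AK4 fell in 4, while EIF2AK3 fell in E2 (-0.23) and rose in E2+(2R,6R)-HNK (0.25) and E2+(2S,6S)-HNK (0.30). Among 10 further genes of eIF2, its exchange factor eIF2B and its other regulators, 6 or 7 fell and 0 to 3 rose in each of the 7 treatments. In ketamine 7 fell and 0 rose (all genes 32.5% and 26.8%), and in E2+ketamine 7 and 3 (all genes 37.4% and 34.3%). After correction 4 fell and 2 rose in ketamine (all genes 31% and 17.7%), 5 and 1 in E2+(2S,6S)-HNK (all genes 34.1% and 22.4%) and 3 and 4 in E2+ketamine (all genes 28.3% and 23.9%), and in (2R,6R)-HNK 2 fell and 6 rose (all genes 25.3% and 20.2%).

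ATF4 RNA itself (chr22:39915700-39918688, hg19) differed from vehicle by at most 0.24 on the log2 scale as fitted. It was 333 and 336 CPM in vehicle, 347 and 341 in E2, 327 and 333 in ketamine, 388 and 391 in (2R,6R)-HNK and 321 and 332 in (2S,6S)-HNK. In the combinations with E2 it was 397 and 395 CPM with ketamine, 340.1 and 333 with (2R,6R)-HNK and 315 and 319.8 with (2S,6S)-HNK. The (2R,6R)-HNK and E2+ketamine libraries did not overlap with vehicle and were higher by 0.22 and 0.24 on the log2 scale, with a standard error of 0.024 in both. After GC correction these values were -0.20 and -0.31, and ATF4 was lower than vehicle in all 7 treatments, by 0.20 to 0.42. ATF4 thus changed direction with the correction in (2R,6R)-HNK and E2+ketamine.

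NUPR1 (chr16:28544029-28550329, hg19), a small nuclear protein induced by stress that assists transcription, changed most among the 6 transcription factors and regulators. Its counts were low, 57 and 39 in the vehicle libraries. It stood at 0.932 and 0.655 CPM in vehicle, 1.15 and 1.07 in E2, 2.36 and 2.48 in ketamine, 1.31 and 1.61 in (2R,6R)-HNK and 1.75 and 2.48 in (2S,6S)-HNK. With E2 the values were 3.72 and 3.97 CPM for ketamine, 1.93 and 1.98 for (2R,6R)-HNK and 1.42 and 1.49 for (2S,6S)-HNK. All treated libraries were above both vehicle libraries, those of E2 alone by the least. The largest rise, 4.83-fold in E2+ketamine (log2 2.27 ± 0.21 SE, adjusted p = 5.61e-14, edgeR), was 2.18 on the log2 scale with GC correction. In E2 alone its log2 difference of 0.48 (95% interval -0.0011 to 0.97) did not pass the test (adjusted p = 0.0775, edgeR); without vehicle replicate 1 it did, at 0.76 (adjusted p = 0.029).

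DDIT3 (chr12:57910371-57915520, hg19), which encodes CHOP, a factor that drives cell death under prolonged ER stress, went the other way. It was 19.4 and 19.6 CPM in vehicle, 14.8 and 15.1 in E2, 12.5 and 12.4 in ketamine, 16.9 and 17.4 in (2R,6R)-HNK and 13.8 and 13.2 in (2S,6S)-HNK. With E2 it was 17.5 and 16.02 CPM for ketamine, 12.9 and 11.9 for (2R,6R)-HNK and 15.1 and 14.2 for (2S,6S)-HNK. All treated libraries were below both vehicle libraries, and the falls ranged from 0.19 in (2R,6R)-HNK to 0.66 in E2+(2R,6R)-HNK on the log2 scale. Corrected falls were 0.17 to 0.63. The 2 smallest falls, in (2R,6R)-HNK and E2+ketamine, did not pass the test in DESeq2 (adjusted p = 0.0921 and 0.0549) or without 1 library (without (2R,6R)-HNK replicate 1, E2+ketamine replicate 2 or, for (2R,6R)-HNK, vehicle replicate 2). Exons of DDIT3 overlap those of MARS on the opposite strand over 355 bases, 27.2% of the DDIT3 exons, and whether counting used strand is not given in the sources used here.

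Of the remaining transcription factors, ATF3, a repressor induced by many stresses, rose in E2 (0.24), (2R,6R)-HNK (0.34), E2+ketamine (0.56) and E2+(2R,6R)-HNK (0.18), of which (2R,6R)-HNK and E2+ketamine still passed after correction (0.27 and 0.47). ATF5, a relative of ATF4 that is also controlled by translation, fell by 0.77 in E2+(2S,6S)-HNK, 0.56 in (2S,6S)-HNK and 0.43 in E2+(2R,6R)-HNK. ATF5 also fell in ketamine, to 20.4 and 19.3 CPM from 24.1 and 25.3 in vehicle. Its rises in E2 (0.14), (2R,6R)-HNK (0.21) and E2+ketamine (0.29) became falls with correction, when ATF5 was lower in all 7 treatments. XBP1, the factor of another ER stress branch, rose in all 7, from 0.12 in E2 to 0.63 in E2+(2R,6R)-HNK, and its corrected rises were larger (0.28 to 0.83). The counts do not separate the spliced, active form of XBP1 RNA from the unspliced form.

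**Figure D3:**
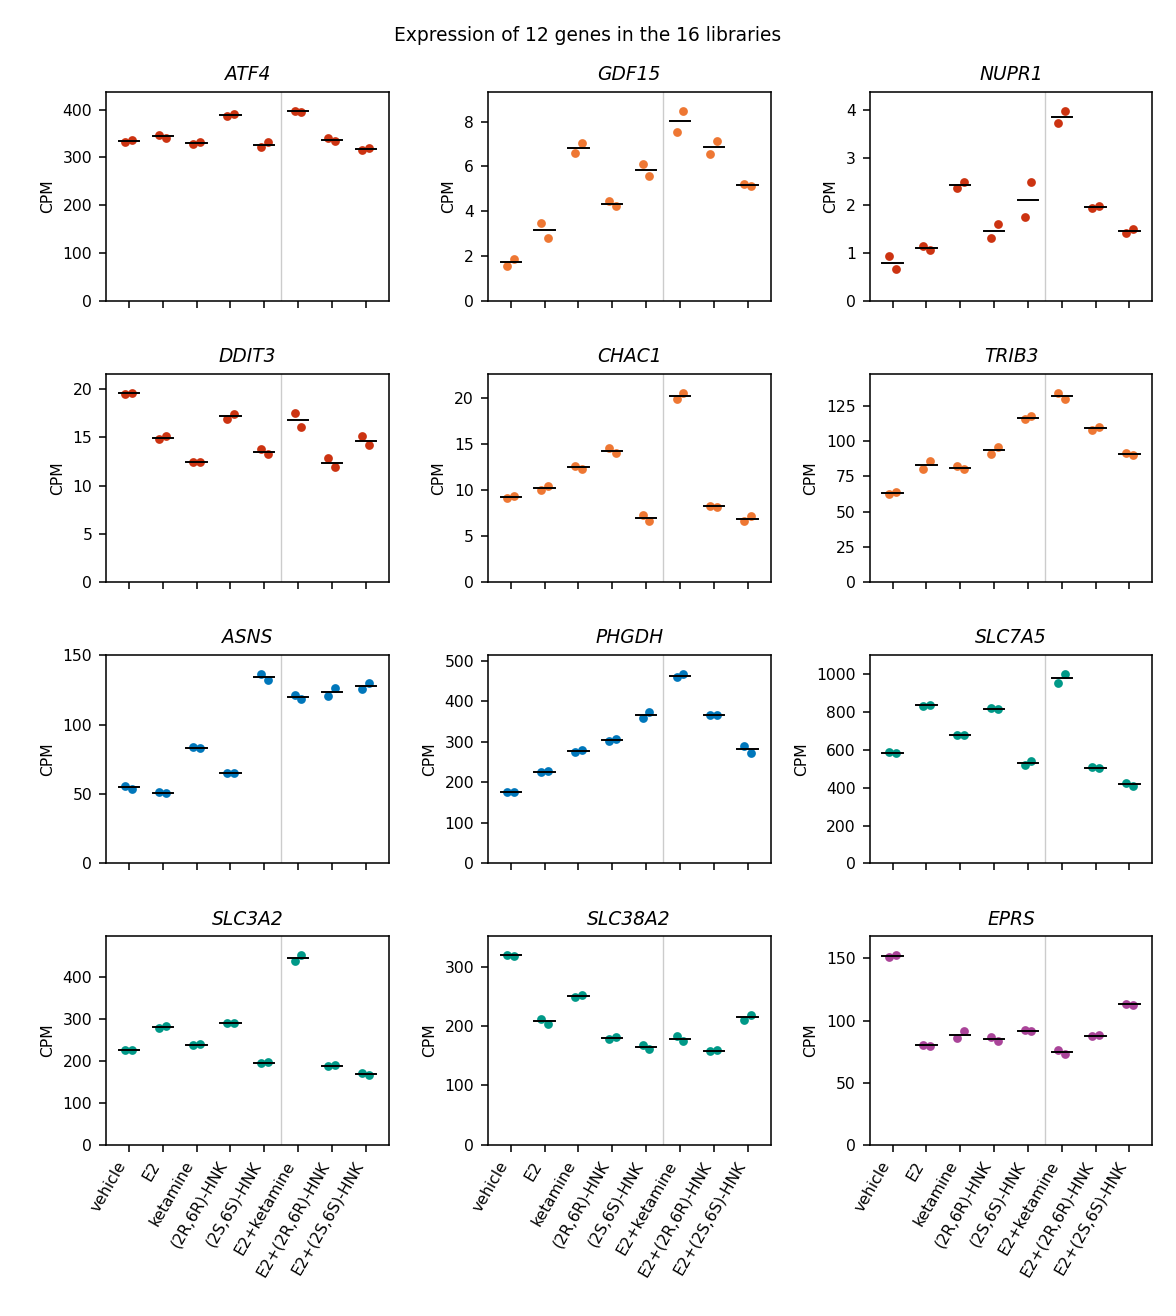
Level in CPM (vertical axis, from 0) of 12 of the 40 genes in each of the 16 libraries (points), with a line at the mean of the 2 libraries of each condition; the grey vertical line sets apart the combinations of E2 with a compound. ATF4 stays between 315 and 397 CPM, GDF15 and NUPR1 are highest in E2+ketamine, and SLC3A2 is above 400 CPM in the E2+ketamine libraries only.

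GDF15 (chr19:18485541-18499986, hg19), a secreted stress cytokine of the TGF-beta superfamily, had the largest rises of the 8 stress effectors. Its counts were 95 and 111 in the vehicle libraries, or 1.55 and 1.86 CPM. It was 3.46 and 2.82 CPM in E2, 6.62 and 7.06 in ketamine, 4.44 and 4.21 in (2R,6R)-HNK and 6.13 and 5.56 in (2S,6S)-HNK. In the combinations it was 7.55 and 8.48 CPM with ketamine, 6.56 and 7.15 with (2R,6R)-HNK and 5.21 and 5.13 with (2S,6S)-HNK. No treated library overlapped with vehicle. The rise was 4.69-fold in E2+ketamine (log2 2.23 ± 0.13 SE, adjusted p = 8.96e-21, edgeR), 4.00-fold in ketamine, 4.01-fold in E2+(2R,6R)-HNK, 3.42-fold in (2S,6S)-HNK and 1.84-fold in E2. Corrected log2 values were 0.52 in E2 and 0.86 to 1.70 in the other 6 treatments.

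TRIB3, a pseudokinase that binds and restrains ATF4, also rose in all 7. It was 62.5 and 63.7 CPM in vehicle, 80.5 and 85.7 in E2, 82.4 and 79.9 in ketamine, 91.0 and 96.1 in (2R,6R)-HNK and 116 and 118 in (2S,6S)-HNK. With E2 it was 135 and 130.0 CPM for ketamine, 108 and 110.3 for (2R,6R)-HNK and 91.8 and 89.9 for (2S,6S)-HNK. Its rises of 0.36 to 1.07 on the log2 scale were 0.014 to 0.44 with correction, and those in E2 and ketamine then no longer passed the test. CHAC1, which breaks down glutathione, did not move in 1 direction. It was 9.15 and 9.30 CPM in vehicle, 9.96 and 10.4 in E2, 12.6 and 12.3 in ketamine, 14.5 and 13.97 in (2R,6R)-HNK and 7.30 and 6.63 in (2S,6S)-HNK. In the combinations it was 19.8 and 20.6 CPM with ketamine, 8.26 and 8.14 with (2R,6R)-HNK and 6.58 and 7.22 with (2S,6S)-HNK. E2+ketamine libraries were the highest and (2S,6S)-HNK libraries, with or without E2, the lowest. The log2 change was 1.13 ± 0.079 (SE) in E2+ketamine and -0.41 ± 0.089 in (2S,6S)-HNK, with corrected values of 0.42 and -0.89. Its rises in ketamine (0.43) and (2R,6R)-HNK (0.63) did not pass after correction (0.088 and 0.088), when it rose in E2+ketamine alone and fell in 4 treatments.

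STC2, a secreted glycoprotein, was the effector with the lowest mean change as fitted. It was 359 and 369.6 CPM in vehicle, 333 and 338 in E2, 339.6 and 344 in ketamine, 321 and 326 in (2R,6R)-HNK and 331 and 328 in (2S,6S)-HNK, and in the combinations 349 and 342 CPM with ketamine, 348 and 347 with (2R,6R)-HNK and 339.8 and 328 with (2S,6S)-HNK. Its falls were small, 0.067 to 0.17 on the log2 scale, and the smallest, in E2+ketamine and E2+(2R,6R)-HNK, did not pass in DESeq2 or without vehicle replicate 2, nor did the latter without either of its own libraries. With upper-quartile scaling STC2 in E2+(2R,6R)-HNK was 0.015 above vehicle. SESN2, which holds back mTORC1 when leucine is short, rose by 0.91 in E2+ketamine (0.28 corrected) and by at most 0.42 elsewhere. After correction E2+ketamine was its only rise, and it fell in (2S,6S)-HNK (-0.26), E2+(2R,6R)-HNK (-0.29) and E2+(2S,6S)-HNK (-0.37). DDIT4 (REDD1), another brake on mTORC1, rose most in ketamine (0.72, and 0.43 corrected), and after correction it fell in E2 (-0.26) and E2+ketamine (-0.24). The ER membrane protein HERPUD1, whose promoter match is printed above, rose by 0.25 in E2+ketamine alone as fitted, and by 0.23 to 0.77 in all 7 treatments after correction. VLDLR, a lipoprotein receptor, was lower in E2 (-0.37), (2R,6R)-HNK (-0.31) and E2+ketamine (-0.46) and higher in E2+(2S,6S)-HNK (0.20), with corrected values of -0.022, 0.15, 0.11 and 0.42. It was also higher in E2+(2R,6R)-HNK as fitted, at 37.6 and 39.4 CPM against 33.8 and 35.2 in vehicle.

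Most of the 9 enzymes that make serine, glycine, proline, asparagine and one-carbon units rose in each of the 6 treatments that contained ketamine or an HNK, in both fits. In ketamine 6 rose and 2 fell (all genes 26.8% and 32.5%), and 7 and 2 after correction (all genes 17.7% and 31%). In (2R,6R)-HNK 6 rose and 2 fell (all genes 31.7% and 34.9%), and 9 and 0 after correction (all genes 20.2% and 25.3%). In (2S,6S)-HNK 8 of the 9 rose and 0 fell, and all 9 rose after correction (all genes 32.1% and 35.8%, and 25.3% higher corrected). In the combinations of E2 with an HNK 8 rose and 0 fell in each, before and after correction (all genes 33.4% and 36.3%, and 24% and 35.7%, or corrected 25.7% and 33.6%, and 22.4% and 34.1%). In E2+ketamine 7 rose and 1 fell (8 and 1 corrected), with a median log2 change of 0.76 beside -0.035 over all genes, of which 34.3% rose and 37.4% fell (23.9% and 28.3% corrected). In E2 alone 4 rose and 3 fell (5 and 2 corrected), where 29.9% of all genes rose and 32.7% fell (15.4% and 22.7% corrected).

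ASNS (chr7:97480989-97501854, hg19), which makes asparagine and has a promoter match printed above, fell into 3 ranges. It was 55.9 and 53.7 CPM in vehicle and 51.3 and 50.5 in E2. In (2R,6R)-HNK it was 65.3 and 64.8 CPM and in ketamine 83.9 and 82.8. It was 136 and 132 CPM in (2S,6S)-HNK, 121 and 118 in E2+ketamine, 121 and 126 in E2+(2R,6R)-HNK and 126 and 130.2 in E2+(2S,6S)-HNK. The last 4 conditions were separate from all others, 2.19-fold to 2.45-fold above vehicle. The (2S,6S)-HNK change was 1.29 ± 0.036 (SE, adjusted p = 1.44e-33, edgeR) on the log2 scale. ASNS has a GC content of 43.2%, and its corrected change in (2S,6S)-HNK was 1.63. The fall in E2 (-0.11) became a rise of 0.21 after correction. That fall in E2 did not pass the test without vehicle replicate 1 (-0.076), without E2 replicate 2 (-0.095) or in DESeq2.

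PHGDH, the first enzyme of serine synthesis, rose in all 7 treatments. It was 177 and 176 CPM in vehicle, 225 and 228 in E2, 275 and 279 in ketamine, 301 and 307 in (2R,6R)-HNK and 358 and 372 in (2S,6S)-HNK. The combinations gave 459 and 467 CPM with ketamine, 365 and 366 with (2R,6R)-HNK and 289 and 274 with (2S,6S)-HNK. Its rise in E2+ketamine, 1.39 ± 0.027 (SE), was 1.21 after correction. Of the next enzymes of the same path, PSAT1 rose in 4 treatments and fell in 2 as fitted, with a highest value of 0.27 in E2+ketamine, and rose in all 7 after correction (0.18 in E2 to 0.79 in E2+ketamine). PSPH rose most in E2+ketamine (0.76, and 0.71 corrected).

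SHMT2, which splits serine into glycine and a one-carbon unit in mitochondria, was 304 and 304 CPM in vehicle, 389 and 391 in E2, 391 and 393 in ketamine, 468 and 473 in (2R,6R)-HNK and 525 and 549 in (2S,6S)-HNK. The combinations gave 638 and 639.5 CPM for ketamine, 522 and 517 for (2R,6R)-HNK and 414 and 396 for (2S,6S)-HNK. It rose in all 7 treatments, by 0.36 to 1.07 on the log2 scale, or 0.042 to 0.55 corrected, when the rise in E2 no longer passed. MTHFD2, which acts after SHMT2 in mitochondria, was 195 and 198 CPM in vehicle, 151 and 147 in E2, 181 and 182 in ketamine, 158 and 162 in (2R,6R)-HNK and 208 and 192 in (2S,6S)-HNK. In the combinations it was 163 and 159 CPM with ketamine, 191 and 188 with (2R,6R)-HNK and 222 and 231 with (2S,6S)-HNK. As fitted it fell in 4 treatments and rose in E2+(2S,6S)-HNK (0.21); after correction only E2 was lower (-0.090) and the other 6 were higher (0.088 to 0.40). ALDH1L2, a mitochondrial folate enzyme, rose by 0.69 in (2S,6S)-HNK, 0.77 in E2+(2R,6R)-HNK and 0.94 in E2+(2S,6S)-HNK, and past 2-fold in the same 3 after correction (1.14, 1.23 and 1.19).

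PYCR1, the last enzyme of proline synthesis, was 306 and 302 CPM in vehicle, 359 and 363 in E2, 365 and 372 in ketamine, 479 and 483 in (2R,6R)-HNK and 623 and 643 in (2S,6S)-HNK. With E2 it was 614 and 633 CPM for ketamine, 673 and 686 for (2R,6R)-HNK and 503 and 489.6 for (2S,6S)-HNK. All treated libraries were above vehicle, with log2 changes of 0.25 to 1.16. PYCR1 has the GC content 63.9%, and after correction E2 (-0.21) and ketamine (-0.10) were lower than vehicle and the other 5 higher (0.10 to 0.59). Its exons overlap those of MYADML2 on the same strand over 14.1% of their length, which leaves the source of reads there uncertain. Annotated lncRNA genes on the same strand that are not listed by that identifier in the count table overlap 49.3% of the exon length of ASNS and 16.5% of that of NUPR1, where the same uncertainty holds. These shares are of exons annotated in GENCODE, whereas counting used UCSC gene models. ALDH18A1, the first enzyme of the path, rose most in E2+(2R,6R)-HNK (0.44, and 0.37 corrected).

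Counts of changed amino acid transporters differed between the fits. In E2, ketamine, (2R,6R)-HNK and E2+ketamine, 4, 3, 3 and 4 of the 5 rose and 1, 2, 2 and 1 fell as fitted, and 2, 1, 1 and 2 rose and 2, 4, 3 and 3 fell after correction. In (2S,6S)-HNK 0 rose and 3 fell, and with E2 0 rose and 4 fell in the (2R,6R) form and 0 and 5 in the (2S,6S) form, and after correction all 5 fell in each of these 3 treatments. Over all genes 24% to 34.3% rose and 32.5% to 37.4% fell in a treatment as fitted, and 15.4% to 25.7% rose and 22.7% to 34.1% fell after correction. SLC7A5 (LAT1) exchanges glutamine for leucine and other large amino acids. It was 589 and 582 CPM in vehicle, 833 and 838 in E2, 682 and 679 in ketamine, 823 and 815 in (2R,6R)-HNK and 522 and 542 in (2S,6S)-HNK. With E2 it was 955 and 1001 CPM for ketamine, 508 and 506 for (2R,6R)-HNK and 425 and 410.1 for (2S,6S)-HNK. The rise in E2+ketamine, 0.74, was 0.069 after correction, and the fall in E2+(2S,6S)-HNK, 0.49, was 0.78. Its rises of 0.22 in ketamine and 0.48 in (2R,6R)-HNK became -0.15 and -0.011, and over the 7 treatments SLC7A5 rose in 4 and fell in 3 as fitted and rose in 2 and fell in 4 corrected. SLC3A2, the heavy chain that SLC7A5 needs at the cell surface, rose by 0.98 ± 0.026 (SE) in E2+ketamine, and the corrected rise was 0.69. Its levels there were 438 and 451 CPM, against 226 and 226 in vehicle and 170.0 and 166 in E2+(2S,6S)-HNK.

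SLC38A2 (SNAT2), a carrier of glutamine and alanine that starved cells induce, was the transporter with the largest fall as fitted. It was 319 and 319 CPM in vehicle, 212 and 203 in E2, 249 and 253 in ketamine, 179 and 182 in (2R,6R)-HNK and 168 and 161 in (2S,6S)-HNK. The combinations gave 183 and 175 CPM with ketamine, 158 and 159 with (2R,6R)-HNK and 211 and 219 with (2S,6S)-HNK. Every treated library was below vehicle, by up to 1.01 on the log2 scale in E2+(2R,6R)-HNK. With a GC content of 37.6% its falls shrank to between 0.084 and 0.39 after correction, and the ketamine value became a rise of 0.097. SLC1A5 (ASCT2), a glutamine carrier, rose by 0.63 in E2+ketamine as fitted and was lower in all 7 treatments after correction (-0.57 to -0.050). SLC7A1, a carrier of arginine and lysine, had log2 differences of -0.26 to 0.21, and of -0.37 to -0.047 corrected.

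The 8 tRNA synthetases, enzymes that load amino acids onto their tRNAs, did not move together. NARS, for asparagine, was 74.0 and 80.6 CPM in vehicle, 43.3 and 42.6 in E2, 47.6 and 46.2 in ketamine, 39.8 and 42.0 in (2R,6R)-HNK and 43.0 and 42.5 in (2S,6S)-HNK. In the combinations with E2 it was 36.3 and 34.3 CPM for ketamine, 37.2 and 39.3 for (2R,6R)-HNK and 57.4 and 55.9 for (2S,6S)-HNK. All treated libraries were below vehicle, and the falls of 0.45 to 1.13 on the log2 scale were 0.25 to 0.60 after correction. EPRS charges both glutamate and proline. It was 151 and 152 CPM in vehicle, 80.8 and 79.5 in E2, 86.02 and 91.6 in ketamine, 86.8 and 83.2 in (2R,6R)-HNK and 92.3 and 91.6 in (2S,6S)-HNK, and with E2 76.7 and 73.1 CPM for ketamine, 87.3 and 88.7 for (2R,6R)-HNK and 114 and 113 for (2S,6S)-HNK. Its falls were 0.42 to 1.02, or 0.21 to 0.53 corrected. In both genes the smallest fall was in E2+(2S,6S)-HNK. GARS, for glycine, also fell in all 7 as fitted (-0.53 to -0.15), but after correction it was higher in 5 (0.11 to 0.29).

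AARS, for alanine, had the highest mean change of the 8 as fitted. It was 294 and 296 CPM in vehicle, 298 and 300.4 in E2, 306 and 314 in ketamine, 314 and 318 in (2R,6R)-HNK and 374 and 388 in (2S,6S)-HNK. In the combinations it was 342 and 343 CPM with ketamine, 369 and 379 with (2R,6R)-HNK and 348 and 345 with (2S,6S)-HNK. The rise in (2S,6S)-HNK, 0.37 ± 0.025 (SE), was 0.13 after correction. As fitted AARS rose in 6 treatments, whereas after correction it rose in 3 and fell in E2 (-0.18), ketamine (-0.13), (2R,6R)-HNK (-0.094) and E2+ketamine (-0.058). CARS, MARS, SARS and WARS, for cysteine, methionine, serine and tryptophan, had log2 differences of -0.20 to 0.45, with MARS highest in E2+ketamine (0.30 corrected). CARS rose in 6 treatments as fitted, and after correction in 2 (0.076 in (2S,6S)-HNK and 0.060 in E2+(2S,6S)-HNK), with falls in the other 5 (-0.22 to -0.086). Of 12 further cytosolic synthetases 8 fell and 3 rose in (2S,6S)-HNK, and 10 fell and 1 rose in ketamine (corrected, 7 and 4, and 10 and 1). Over all genes 35.8% fell and 32.1% rose in (2S,6S)-HNK and 32.5% and 26.8% in ketamine, or 31.5% and 25.3%, and 31% and 17.7%, corrected. The largest of these falls were TARS, for threonine, in E2+(2R,6R)-HNK (-1.31, and -1.01 corrected) and RARS, for arginine, in E2+ketamine (-1.25, and -0.61 corrected).

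Ketamine and its metabolites were compared with each other at the same dose and time, in 6 pairs, to ask where a difference in structure went with a difference in response. The HNKs are ketamine without its N-methyl group and with a hydroxyl group on the ring, and they differ from each other only in handedness. P-values were adjusted over all genes within each pair. Between (2R,6R)-HNK and (2S,6S)-HNK, 12 of the 40 were higher and 21 lower in the (2R,6R) form (all genes 21% and 22.4%), or 14 and 18 with GC correction (all genes 24.4% and 20.4%). ASNS was lower by 1.04 on the log2 scale (95% interval -1.116 to -0.97), CHAC1 was higher by 1.03 (0.86 to 1.20) and ALDH1L2 was lower by 0.85 (-1.01 to -0.68). Corrected differences of the 3 genes were -1.01, 0.97 and -0.78. SLC7A5 and SLC3A2 were also higher in the (2R,6R) form, by 0.62 and 0.57. The interval of the difference was -0.16 to 0.032 for NARS and -0.076 to 0.023 for STC2, neither of which passed the test.

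With E2 present, 23 of the 40 were higher and 11 lower in E2+(2R,6R)-HNK than in E2+(2S,6S)-HNK (all genes 29.1% and 25%), and with GC correction 7 and 9 (all genes 17.5% and 12.1%). The largest differences were in NARS (-0.57, 95% interval -0.66 to -0.47), PYCR1 (0.45, 0.41 to 0.50) and SLC38A2 (-0.44, -0.50 to -0.38). Their corrected values were -0.35, 0.19 and -0.12. ASNS, the gene that differed most between the enantiomers without E2, differed by -0.048 (-0.12 to 0.019, adjusted p = 0.232, edgeR) with it. With correction the sign turned, since ASNS was 1.30 above E2 alone in E2+(2R,6R)-HNK and 1.18 in E2+(2S,6S)-HNK.

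Ketamine against (2R,6R)-HNK gave 13 genes higher and 19 lower in ketamine (all genes 22.8% and 22.6%), or 9 and 20 corrected (all genes 14.7% and 24.1%). NUPR1 was higher by 0.74 (95% interval 0.36 to 1.125) and GDF15 by 0.66 (0.43 to 0.88), while ATF5 was lower by 0.52 (-0.64 to -0.40). Corrected values were 0.73, 0.83 and -0.38. Against (2S,6S)-HNK, 10 were higher and 17 lower in ketamine (all genes 22% and 24.2%), or 12 and 20 corrected (all genes 17.6% and 23.6%). CHAC1 was higher by 0.84 (0.67 to 1.01), PYCR1 was lower by 0.78 (-0.83 to -0.73) and ASNS was lower by 0.69 (-0.76 to -0.62), with corrected differences of 0.97, -0.63 and -0.80. GDF15 did not pass in this pair, with a difference of 0.23, an interval of 0.0046 to 0.45 that is not adjusted for the number of genes, and an adjusted p of 0.09 (edgeR), nor did NUPR1 (0.19, -0.18 to 0.56).

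With E2, CHAC1, SLC3A2 and NUPR1 set ketamine apart from both HNKs. Against E2+(2R,6R)-HNK, 22 were higher and 12 lower in E2+ketamine (all genes 25.3% and 26.7%), and 24 and 13 against E2+(2S,6S)-HNK (all genes 31.7% and 35%). The corrected counts were 24 and 9 (all genes 28.1% and 22.3%), and 24 and 13 (all genes 30.6% and 25.1%). These 3 genes had the largest differences in both pairs. CHAC1 was higher in E2+ketamine by 1.30 (95% interval 1.14 to 1.46) and 1.55 (1.39 to 1.72), SLC3A2 by 1.24 (1.18 to 1.29) and 1.403 (1.35 to 1.46), and NUPR1 by 0.97 (0.61 to 1.34) and 1.3998 (1.02 to 1.77). Corrected differences of these genes were between 1.01 and 1.35. ASNS differed by -0.043 (-0.11 to 0.025) from E2+(2R,6R)-HNK and did not pass, and GDF15 by 0.23 (0.0088 to 0.44) likewise. With correction the ASNS sign turned, at 1.399 above E2 alone in E2+ketamine and 1.30 in E2+(2R,6R)-HNK. The pairs share libraries and are not independent of each other.

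The effect of each compound was then compared with and without E2. In the presence of E2, ketamine against E2 alone raised 29 of the 40 and lowered 5 (all genes 24.8% and 25.5%), (2R,6R)-HNK raised 20 and lowered 13 (all genes 25.1% and 25.4%) and (2S,6S)-HNK raised 21 and lowered 12 (all genes 27.3% and 27.8%). After correction the counts were 25 and 4 for ketamine (all genes 18% and 17.1%), 21 and 15 for (2R,6R)-HNK (all genes 23% and 27.5%) and 22 and 14 for (2S,6S)-HNK (all genes 22.6% and 29.1%). The largest of these effects for ketamine were NUPR1 (1.79), GDF15 (1.35) and ASNS (1.24). For (2R,6R)-HNK they were ASNS (1.28), GDF15 (1.124) and PYCR1 (0.91), and for (2S,6S)-HNK ASNS (1.33), ALDH1L2 (1.04) and SLC7A5 (-1.001). Corrected, the same effects were 1.78, 1.08 and 1.399 for ketamine, 1.30, 1.02 and 0.80 for (2R,6R)-HNK and 1.18, 0.87 and -0.88 for (2S,6S)-HNK. The 95% intervals of the ASNS effects as fitted, 1.16 to 1.31, 1.21 to 1.35 and 1.25 to 1.3999, overlapped.

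The interaction test asks whether the effect with E2 differs from the effect without it. For ketamine 29 of the 40 had a higher effect with E2 and 2 a lower one (all genes 24.5% and 13.1%), and 28 and 3 after GC correction (all genes 25% and 11.8%). A higher effect can be a smaller fall, as in EPRS, which ketamine changed by -0.77 without E2 and by -0.098 with it. The transporters (4 of 5), the enzymes (7 of 9) and the tRNA synthetases (7 of 8) contributed most of these. Among the other gene lists counted below, 14 of 17 ER chaperones and related genes were higher and 1 lower. Of 12 further cytosolic synthetases 10 were higher and 1 lower, and of 8 other one-carbon enzymes 2 were higher and 3 lower. For (2R,6R)-HNK the counts were 18 and 15 (all genes 31.5% and 25.2%), and for (2S,6S)-HNK 13 and 23 (all genes 32.9% and 32.2%). The corrected counts were 16 and 11 (all genes 21.7% and 21.6%) for (2R,6R)-HNK and 14 and 16 (all genes 19.7% and 20.6%) for (2S,6S)-HNK. GDF15 and DDIT3 show opposite cases for ketamine. Ketamine raised GDF15 by 2.00 without E2 and by 1.35 with it, a difference that did not pass without E2 replicate 1 or vehicle replicate 1. Its effect on DDIT3 was -0.65 without E2 and 0.17 with it.

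**Figure D4:**
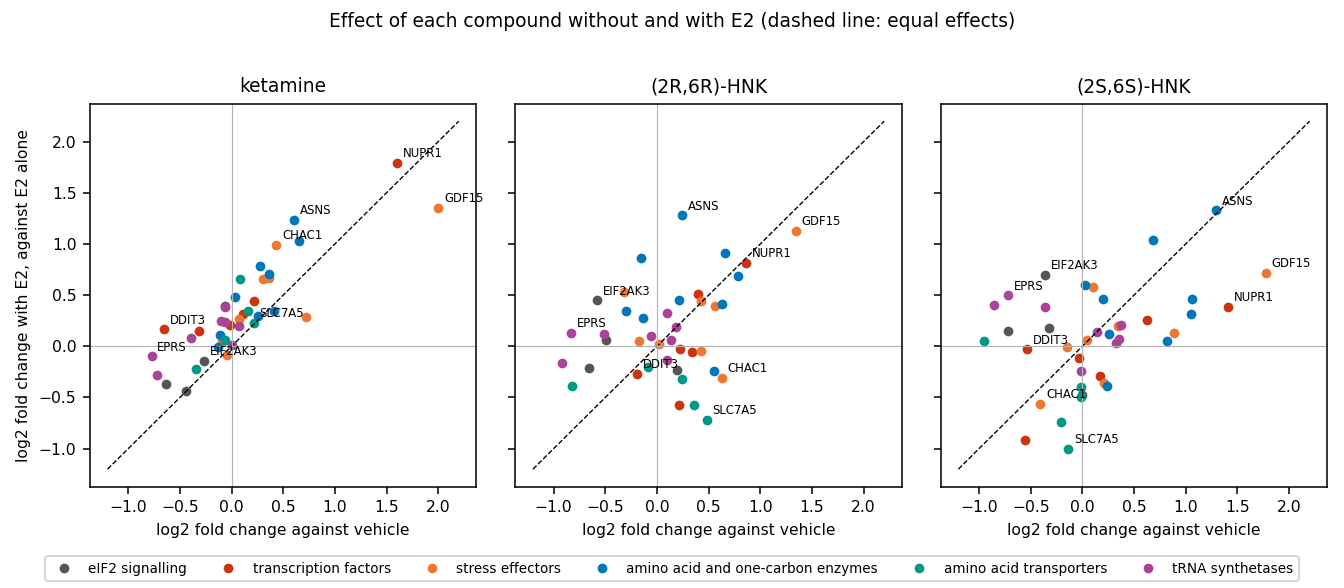
Log2 effect of each compound against vehicle (horizontal axis) and in the presence of E2 against E2 alone (vertical axis) for the 40 genes, coloured by role, with ketamine left, (2R,6R)-HNK in the middle and (2S,6S)-HNK right; the dashed line marks equal effects. For ketamine most points lie above the line, whereas for (2S,6S)-HNK GDF15 and 4 of the 5 transporters lie below it.

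Other genes of the pathway were counted in the same way. Over all genes 34.3% rose and 37.4% fell in E2+ketamine, 26.8% and 32.5% in ketamine, 32.1% and 35.8% in (2S,6S)-HNK and 24% and 35.7% in E2+(2S,6S)-HNK. The corrected shares, in the same order, were 23.9% and 28.3%, 17.7% and 31%, 25.3% and 31.5%, and 22.4% and 34.1%. Of 20 further ATF4 targets and partners 19 were tested, FGF21 being too low. 11 of the 19 rose and 6 fell in E2+ketamine (10 and 3 corrected), and 10 rose and 3 fell in ketamine (10 and 6 corrected). SLC7A3, a carrier of arginine and lysine, rose by 2.59 ± 0.26 (SE) in E2+(2R,6R)-HNK and 2.39 ± 0.26 in (2S,6S)-HNK, with corrected values of 2.43 and 2.25. INHBE, a secreted activin subunit, rose by 2.08 ± 0.33 in E2+ketamine (1.68 corrected). SLC7A3 and INHBE are named for having the largest changes of the list. In (2R,6R)-HNK 10 of the 19 rose and 6 fell (all genes 31.7% and 34.9%), or 4 and 5 corrected (all genes 20.2% and 25.3%). CEBPG, XPOT and SLC7A11 changed there by -0.85, -0.82 and -0.78 (corrected -0.40, -0.29 and -0.11). Among 17 ER chaperones and members of other unfolded protein response branches, falls outnumbered rises in each treatment, as over all genes, also after correction. Falls and rises were 8 and 6 in E2+ketamine, 10 and 1 in ketamine and 11 and 2 in E2+(2S,6S)-HNK. Corrected, they were 9 and 5 in E2+ketamine, 12 and 1 in E2+(2S,6S)-HNK and 10 and 0 in E2 (all genes 22.7% and 15.4%). DNAJC3, an ER co-chaperone that also inhibits eIF2 kinases, fell by 1.11 in E2+(2R,6R)-HNK (0.59 corrected). The 17 mitochondrial tRNA synthetases had 5 higher and 7 lower in (2S,6S)-HNK and 7 and 9 in E2+ketamine (4 and 8, and 4 and 6 corrected). In (2S,6S)-HNK these counts as fitted were near the shares over all genes. Of 8 other one-carbon enzymes 4 rose and 4 fell in (2S,6S)-HNK (4 and 2 corrected), where AMT, of the glycine cleavage system, rose by 1.98 ± 0.21 (1.66 corrected).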

How the data were processed

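HMC3 cells were treated for 24 h and RNA was sequenced from 16 libraries, 2 in each of 8 conditions grouped by the deposited treatment labels. The authors prepared libraries with the NuGEN Ovation RNA-seq kit, aligned read pairs to hg19 (TopHat2 2.0.14 and Bowtie2 2.2.6 in the submitters' processing notes) and deposited raw counts per gene from featureCounts 1.4.6. Whether counting used strand is not given in the sources used here. The 40 members and the other gene lists were chosen with earlier results of these data known. All 16 libraries were fitted together in edgeR 4.0.16 (R 4.3.3; filterByExpr, TMM, quasi-likelihood test) with a mean for each condition and 8 residual degrees of freedom and Benjamini-Hochberg adjustment over 16004 genes within each comparison. CPM, the deposited counts scaled to a common library size, use TMM library sizes for the members. Those of the cell type markers use the total counts of each library. DESeq2 1.42.0 was an alternative. GC content and length came from GENCODE v44lift37 exons for 96.0% of tested genes, and a loess trend (span 0.5) was removed per library in the corrected fit. Exon overlaps came from the same annotation. The paper states that counting used UCSC hg19 gene models. The counted exons can therefore differ from those used for GC content, length and overlaps. Genes named with all levels had changes of at least 2-fold, were ATF4, or had the highest or lowest mean change in their role. For each compound pair and interaction, the 3 largest differences were named, and other genes were added to account for all members. Intervals are 95%. On simulated counts for ketamine against vehicle, with 16004 genes, edgeR recovered 61% of log2 changes of 0.3 and 82% of those of 1. It made 9 false calls. With an added GC trend there were 7922 false calls, and 3 after correction. That trend was made from the same GC content that the correction fits, so its removal was built in. The simulation does not show which fit of the real counts is nearer to the RNA in the cells.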

Additional observations from a re-analysis of the deposited data

Results flagged for a closer look

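For each compound, the 3 genes whose effect differed most between the presence and absence of E2 were picked out for a closer look by an interaction test in edgeR, so the sizes below are those of genes chosen for being large. Each value is the log2 effect with E2, against E2 alone, minus the effect without it, against vehicle. The separate effects with and without E2 are printed as fitted, and corrected values only for the interactions.

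For ketamine, the interaction was 0.81 ± 0.099 (SE) in DDIT3, 0.68 ± 0.050 in EPRS and -0.65 ± 0.18 in GDF15. Ketamine changed EPRS by -0.77 without E2 and -0.098 with it. The corresponding GC-corrected interactions were 0.79, 0.57 and -0.62. The GDF15 difference did not pass the test without E2 replicate 1 (-0.49) or vehicle replicate 1 (-0.53).

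For (2R,6R)-HNK, the interaction was -1.21 ± 0.032 in SLC7A5, where the effect was 0.48 without E2 and -0.72 with it. It was 1.03 ± 0.052 in ASNS (0.25 and 1.28) and 1.03 ± 0.10 in EIF2AK3 (-0.58 and 0.45). The GC-corrected interactions were -0.85, 0.68 and 0.49. After correction neither the rise of SLC7A5 nor the fall of EIF2AK3 in (2R,6R)-HNK without E2 remained as a change that passed the test.

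For (2S,6S)-HNK, the interaction was 1.25 ± 0.065 in NARS, where the effect was -0.85 without E2 and 0.40 with it. It was 1.22 ± 0.049 in EPRS (-0.72 and 0.50) and 1.06 ± 0.10 in EIF2AK3 (-0.36 and 0.70). The corrected interactions, 0.68, 0.63 and 0.42, kept their sign. The fall of EIF2AK3 in (2S,6S)-HNK without E2 did not pass the test after correction. These differences share the E2 and vehicle libraries across the 3 compounds.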

How the results depend on the processing

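With 2 libraries per condition, NUPR1 and GDF15 rest on under 200 counts in each vehicle library. Counts of changed members stayed within 1.5 times their main value under DESeq2, both other filters, halved counts, fits to the compared groups alone and each left-out library. Exceptions came from the GC and length correction, where 10 instead of 17 members rose in E2, 16 instead of 34 differed between the HNKs given with E2 and 5 instead of 11 passed 2-fold, and from upper-quartile scaling, where 9 instead of 16 fell in ketamine. The correction also moved 33 of 84 counts of the other gene lists by over 1.5 times. Upper-quartile scaling shifted the median gene by 0.0618 to 0.105 (log2) against vehicle. The causes were not tested. Replicate numbers did not pair the libraries, since correlations between the replicate differences of 28 pairs of conditions were -0.026 to 0.045, and with the replicate block all 27 counts stayed within that range and every named gene kept its call. The block together with the GC correction gave the same 10, 16 and 5.

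Among the genes given with all levels, signs turned with GC correction, with or without the block, in ATF4 (E2 -0.28, (2R,6R)-HNK -0.20, E2+ketamine -0.31, E2+(2R,6R)-HNK -0.41), AARS (E2 -0.18, ketamine -0.13, (2R,6R)-HNK -0.094, E2+ketamine -0.058), MTHFD2 (ketamine 0.088, (2R,6R)-HNK 0.11, E2+ketamine 0.23, E2+(2R,6R)-HNK 0.28), PPP1R15A (E2 -0.099, (2R,6R)-HNK -0.20), PYCR1 (E2 -0.21, ketamine -0.10), SLC7A5 (ketamine -0.15, (2R,6R)-HNK -0.011), ASNS and CHAC1 (E2 0.21 and -0.27) and SLC38A2 (ketamine 0.097). Of the 40 changes that passed in both fits with opposite signs, 25 were in other members, namely GARS (5), CARS and SLC1A5 (4 each), ATF5 (3), SESN2 and PSAT1 (2 each) and DDIT4, SLC3A2, SLC7A1, VLDLR and EIF2AK3 (1 each). With upper-quartile scaling signs turned in ATF4 (ketamine 0.064, E2+(2S,6S)-HNK 0.029) and STC2 (E2+(2R,6R)-HNK 0.015). Of the 169 values of named genes, 6 others lost their call with this scaling and 6 gained one. In fits to the compared groups alone 2 lost their call.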
